A study of Mus musculus with 2 samples.

Results

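The insulin and IGF signalling genes described here are 34 listed genes that run from the IGF ligands through their receptors, binding proteins and adaptors to the PI3-kinase, Akt, Foxo and mTORC1 branches. A probe was taken as a member when its RefSeq accession, or the gene symbol in its description, mapped to a listed gene. By this rule 50 probes read 32 of the 34 genes, out of 16532 genes detected in all. Irs2 and Gsk3a had no probe by the rule. All 32 genes were well above background in both genotypes on both arrays, and none was saturated.

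The samples were whole pancreas of pups at postnatal day 3, either carrying a homozygous mutant Glis3 allele (written Glis3zf/zf, and Glis3KO in the sample titles) or wild type. Glis3 encodes a zinc finger transcription factor of the Krüppel-like kind that is needed for normal formation of insulin-producing beta cells. Each genotype was a pool of RNA from 2 pups, and both pools were hybridised together to 2 two-colour Agilent mouse arrays with the Cy3 and Cy5 dyes exchanged. Each genotype is therefore 1 sample, no test between genotypes was possible, and the spread given is the technical spread between the arrays.

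Insulin and the IGFs bind related receptor tyrosine kinases that phosphorylate insulin receptor substrate adaptors, which recruit PI3-kinase. The lipid it makes brings Pdpk1 and Akt to the membrane, and Akt then restrains Foxo transcription factors, glycogen synthase kinase and the Tsc complex, the last of which holds back Rheb and mTORC1. IGF binding proteins hold IGFs outside the cell and set how much of them reaches the receptor. In the pancreas, beta cells make insulin and also carry these receptors and adaptors, which take part in regulating beta cell mass.

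Ratios below are log2 of mutant over wild type after background correction and loess normalisation within each array. Where a pair of values is given, the first comes from the hybridisation in which Cy5 labelled the mutant and Cy3 the wild type, and the second from the one with the dyes exchanged. Signals are normalised spot intensities in arbitrary linear units, and they are compared only within a probe or as sums over the same probes. Overlap of the signals of the genotypes is remarked for some genes only. Igfals, with a mean ratio of 0.04, had no overlap either. The share of all genes without overlap was not counted, so a lack of overlap is a description and no evidence of a difference. A gene was counted as higher or lower when it differed by at least 0.32 log2 in the same direction on each array. The technical SD of a mean ratio, as measured by the disagreement of the 2 arrays, was 0.079 log2 over the detected genes. It was between 0.066 and 0.104 across 10 classes of intensity. Genes past the stricter 2-fold rule given below were left out of it. The measure also includes any dye bias of single genes, which the mean of the 2 arrays cancels. The probe for Glis3 itself had mean signals before normalisation of 114.9 and 127.8 in the mutant pool, against 155.3 and 115.4 in the wild-type pool, and its ratios were -0.02 and 0.01. The sources used here do not say whether it lies in the mutated stretch, so it is no check of the genotype labels.

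Most of the 32 genes differed little between the pools. Igfbp2 alone was higher by the 0.32 log2 rule, which is 1 of 32 where 1.23% of all detected genes were higher. None of the 32 was lower, where 1.65% of all detected genes were. A stricter rule asked for a mean change of 2-fold or more and for 1.5-fold or more in the same direction on each array. None of the 32 met it, and 0.381% of all detected genes did. The median ratio of the 32 genes was 0.04, and that of all detected genes was 0.00. Of the 32 genes 29 lay within 0.3 log2 of no difference, a share of 90.6% where all detected genes had 94.7%.

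Signs were mixed. A ratio above 0 on both arrays was found for 13 of the 32 genes, or 40.6%, where 32.5% of all detected genes had one. A ratio below 0 on both arrays was found for 5, or 15.6%, where the share over all detected genes was 30.5%. The other 14 changed sign when the dyes were exchanged. Among 8 genes for IGF binding proteins and their partner Igfals, 6 were above 0 on both arrays and the median was 0.08. Among the other 24 genes 7 were above 0 on both arrays, 4 were below 0 on both, and the median was 0.03. These counts depend on the centring of the arrays. With median centring in place of loess the median of the 32 genes was -0.001, and 4 of the 8 binding protein genes had a mean ratio above 0 where 7 had one by loess.

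**Figure D1:**
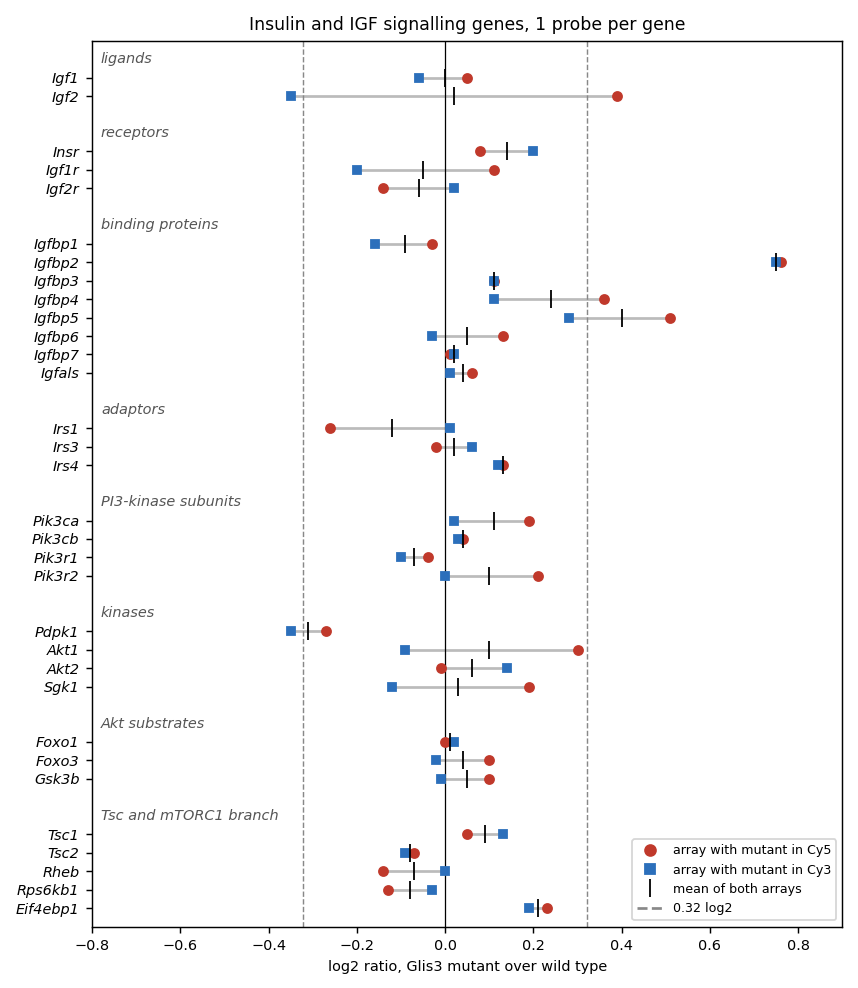
Log2 ratio of mutant over wild type (horizontal axis) for the 32 measured insulin and IGF signalling genes, grouped by role, with 1 probe per gene. Red circles are the array whose mutant RNA was in Cy5, blue squares the one whose mutant RNA was in Cy3, black ticks their mean and dashed lines the 0.32 log2 rule; Igfbp2 is the gene with both points beyond the dashed line.

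Both IGF ligand genes changed sign with the dyes. Igf1, the growth hormone-responsive ligand, had signals of 1560.2 and 1523.3 in the mutant, against 1506.3 and 1587.8 in the wild type. The signals of the genotypes overlapped, and the ratios were 0.05 and -0.06. A second probe, designed to another Igf1 transcript, read 0.06 and 0.14. Igf2, the main fetal growth factor of the family, had signals of 23504.7 and 18890.5 in the mutant, against 17881.5 and 24141.3 in the wild type. In each pool its signal was higher in the Cy5 channel, whichever genotype that channel held. The ratios were 0.39 and -0.35 with a mean of 0.02, and each array lay 0.37 from that mean, where the technical SD of genes as bright was 0.104. A dimmer Igf2 probe, placed within the same stretch of chromosome 7, had signals of 7895.9 and 8188.0 in the mutant, against 6831.5 and 7829.9 in the wild type. It read 0.21 and 0.06, so the mean of neither probe differed from 0 by 0.32 log2. Igf2 lies next to the insulin gene Ins2 with 0 protein-coding genes between them, and their nearest probes are 27481 bp apart.

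The insulin genes themselves, ligands of the same pathway, were the lowest of all the pathway genes examined. Ins1 had signals of 3934.0 and 2806.4 in the mutant, against 57417.0 and 61087.1 in the wild type, where 1 array was saturated. Ins2 had 8472.8 and 3677.9 in the mutant, against 61799.7 and 61110.7 in the wild type, where both arrays were saturated. The mean of its log2 ratios makes it at least 11-fold lower. In RNA from whole tissue, fewer cells of a type and less RNA per cell cannot be told apart. The ratios of Igf2 thus lay near 0 on average, beside ratios of -2.87 and -4.05 for its neighbour Ins2.

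The 3 receptor genes stayed within 0.2 log2 of no difference on average. Insr, the insulin receptor, had signals of 243.7 and 262.0 in the mutant, against 230.5 and 228.8 in the wild type. Its mutant signals were above both wild-type signals, the ratios were 0.08 and 0.20, and the mean of 0.14 fell short of the 0.32 log2 rule. Igf1r, the receptor for IGF1 and IGF2, had 471.9 and 429.8 in the mutant, against 436.6 and 494.9 in the wild type, with ratios of 0.11 and -0.20. Igf2r, the mannose-6-phosphate receptor that takes IGF2 up for degradation, had 2548.4 and 2758.9 in the mutant, against 2801.2 and 2721.7 in the wild type, with ratios of -0.14 and 0.02. For both IGF receptors the sign changed with the dyes and the genotypes overlapped.

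Among the binding proteins Igfbp2 stood out. Igfbp2 (NM_008342) encodes a binding protein abundant in fetal tissues and plasma. The files place its probe at 73153786 to 73153845 of chromosome 1. Signals were 1751.9 and 1620.7 in the mutant, against 1036.9 and 964.3 in the wild type. Both mutant values were above both wild-type values, with no overlap across dyes. The ratios were 0.76 and 0.75, a mean of 0.75 or 1.69-fold, where the technical SD of genes as bright was 0.082. Of the 16532 detected genes, 63 had a higher mean ratio. The value rests on a single probe.

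Igfbp5 (NM_010518), which encodes a binding protein that also attaches to extracellular matrix, is the gene next to Igfbp2 with 0 protein-coding genes between them. Their nearest probes are 6093 bp apart. The brighter Igfbp5 probe, on chromosome 1 from 73159938 to 73159997, had signals of 3920.4 and 3125.1 in the mutant, against 2752.3 and 2572.3 in the wild type. The genotypes did not overlap, and the ratios were 0.51 and 0.28, so the mean of 0.40 passed 0.32 log2 but the second array did not. A dimmer probe of the same transcript, from 73162475 to 73162534, had 626.8 and 643.5 in the mutant, against 613.2 and 617.4 in the wild type, with ratios of 0.03 and 0.06. The probes thus disagreed on size while both were above 0 on both arrays.

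Igfbp4, which encodes a binding protein cleaved by the protease Pappa, was read by a pair of probes on chromosome 11. The brighter had signals of 710.9 and 720.7 in the mutant, against 552.1 and 665.6 in the wild type, and ratios of 0.36 and 0.11. The other had 276.4 and 262.3 in the mutant, against 201.0 and 226.6 in the wild type, and ratios of 0.46 and 0.21. On each probe both mutant signals were above both wild-type signals, and on each the second array was under 0.32 log2. Means were 0.24 and 0.34.

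The remaining binding protein genes differed less. Igfbp3, the main carrier of IGFs in adult plasma, had 137.3 and 141.4 in the mutant, against 127.2 and 130.7 in the wild type, with ratios of 0.11 on each array. A brighter cDNA clone probe (AK077477), whose description names the Igfbp3 product but which the rule does not map, read 0.21 and 0.13. Igfbp6, which encodes a binding protein that prefers IGF2, had 1802.3 and 1791.1 in the mutant, against 1645.9 and 1826.8 in the wild type, with ratios of 0.13 and -0.03. Igfbp3 was slightly above 0 by each probe, while Igfbp6 changed sign.

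Igfbp7, which encodes a low-affinity, vessel-associated relative, had 13239.0 and 12445.9 in the mutant, against 13130.5 and 12246.1 in the wild type, and ratios of 0.01 and 0.02. Igfals, the acid-labile subunit that joins IGF and binding protein in plasma, had 558.6 and 548.9 in the mutant, against 536.5 and 543.9 in the wild type, and ratios of 0.06 and 0.01. Igfbp1, which encodes an insulin-repressed binding protein of liver, was dim, with 73.7 and 79.5 in the mutant against 75.1 and 88.8 in the wild type. Its ratios were -0.03 and -0.16, and it was the sole binding protein gene below 0 on both arrays. With the scanner software's own ratios, made with another background correction and normalisation, Igfbp1 read -0.33 and -0.39 and passed the 0.32 log2 rule as lower. Igfbp1 and Igfbp3 are also neighbours, with 0 protein-coding genes between them.

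**Figure D2:**
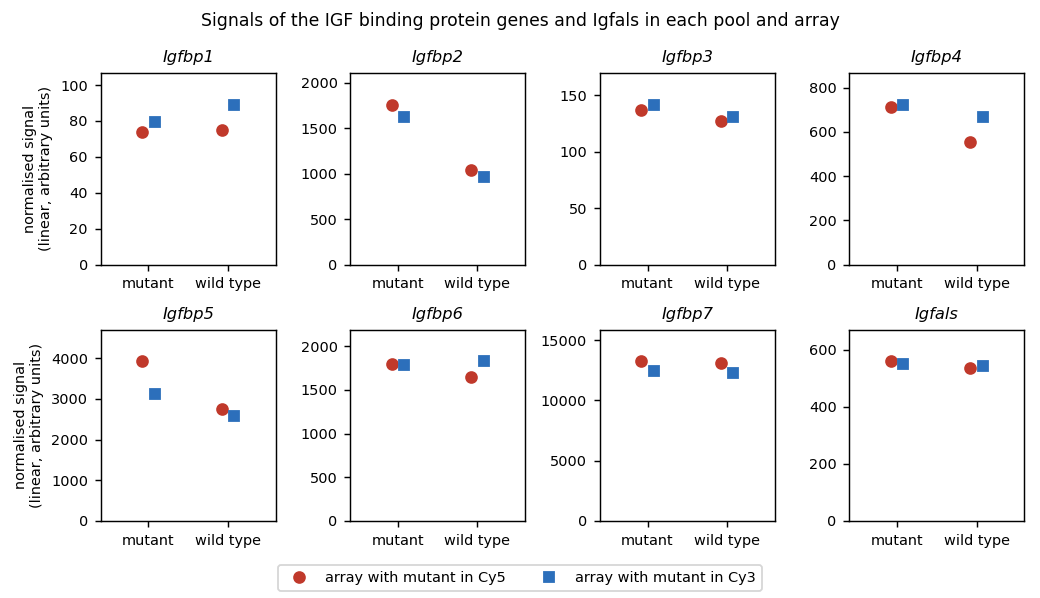
Normalised signal (vertical axes, linear arbitrary units from 0, 1 scale per gene) of the 7 Igfbp genes and Igfals in the mutant and the wild-type pool. Red circles are the array whose mutant RNA was in Cy5 and blue squares the one whose mutant RNA was in Cy3; for Igfbp2 the mutant points at 1751.9 and 1620.7 lie well above the wild-type points at 1036.9 and 964.3.

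Some lists of cell type markers moved between the same pools, and others differed little. Of all detected genes 1.23% were higher and 1.65% lower by the 0.32 log2 rule, and their median ratio was 0.00. Skeletal muscle genes had the largest shift upward: 18 of 26 measured, of 30 listed, were higher by the 0.32 log2 rule, none was lower, and the median ratio was 1.34. Their summed signal was 33094 and 32078 in the mutant, against 9775 and 9117 in the wild type. Mesenchymal and stellate cell genes had 2 of 16 higher and a median of 0.13, with sums of 172142 and 151495 in the mutant, against 140518 and 152084 in the wild type. These 16 genes include collagens, and their sums overlapped between genotypes. Myeloid genes had 3 of 12 higher and a median of 0.30, with sums of 28413 and 26212 in the mutant, against 17541 and 17064 in the wild type. Liver genes had 1 of 16 measured, of 18 listed, higher and a median of 0.05, with sums of 14670 and 14897 in the mutant, against 16525 and 15160 in the wild type. The islet hormone genes, by contrast, were lower in 8 of 8, with a median of -2.06. Their sums were 72684 and 62087 in the mutant, against 238528 and 236319 in the wild type. These sums include Ins1 and Ins2, which were saturated in the wild type on 1 and on 2 arrays, so the wild-type sums may be too low. Whether any of these cell types had a part in the values of Igfbp2, Igfbp5 and Igfbp4 was not tested. Of the endothelial genes 3 of 12 were lower and none higher, with a median of -0.17, and of the erythroid genes 1 of 6 was lower, with a median of -0.15. Adipocyte genes had 1 of 13 higher with a median of 0.05, and duct genes 0 of 11 past the rule with a median of 0.09. Acinar cell genes, mostly of digestive enzymes and defining for the labelled tissue, summed to 721009 and 799844 in the mutant, against 722349 and 650332 in the wild type, with 2 of 17 higher and 2 lower. Their median ratio was 0.17, and 13 of the 17 were above 0 on both arrays.

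The stretches just upstream of the genes for Igfbp2, Igfbp5 and Igfbp4, the binding proteins with the highest ratios, are shown with that of Igf2, a member with a match to the Glis motif and the one whose brighter probe gave the widest gap between the dyes. Each is the 250 bases before an annotated transcription start from RefSeq on GRCm38.p6, written 5′ to 3′ on the strand of the gene. Capitals mark matches on either strand to TGGGGGGT, the core of the element bound by Glis proteins, TGTTTAC, a forkhead element, TATAAA, the TATA box, and GGGCGG, the GC box.
Igfbp2, first start, chr1:72824230-72824479, plus strand: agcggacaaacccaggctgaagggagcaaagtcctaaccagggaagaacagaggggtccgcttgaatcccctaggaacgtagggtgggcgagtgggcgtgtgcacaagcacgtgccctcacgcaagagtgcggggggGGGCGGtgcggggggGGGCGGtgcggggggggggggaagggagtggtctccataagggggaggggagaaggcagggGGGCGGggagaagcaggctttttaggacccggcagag
Igfbp5, chr1:72874866-72875115, minus strand: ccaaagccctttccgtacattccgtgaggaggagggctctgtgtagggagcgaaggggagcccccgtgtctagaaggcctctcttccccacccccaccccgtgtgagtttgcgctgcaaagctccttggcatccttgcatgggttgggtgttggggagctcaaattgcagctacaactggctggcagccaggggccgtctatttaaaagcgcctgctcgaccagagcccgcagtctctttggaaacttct
Igfbp4, chr11:99040994-99041243, plus strand: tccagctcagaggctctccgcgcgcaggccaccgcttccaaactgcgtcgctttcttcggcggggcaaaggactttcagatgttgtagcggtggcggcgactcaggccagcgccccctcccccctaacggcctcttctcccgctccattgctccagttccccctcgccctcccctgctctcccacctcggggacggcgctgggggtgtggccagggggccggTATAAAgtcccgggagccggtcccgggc
Igf2, start nearest the 3′ end, chr7:142657497-142657746, minus strand: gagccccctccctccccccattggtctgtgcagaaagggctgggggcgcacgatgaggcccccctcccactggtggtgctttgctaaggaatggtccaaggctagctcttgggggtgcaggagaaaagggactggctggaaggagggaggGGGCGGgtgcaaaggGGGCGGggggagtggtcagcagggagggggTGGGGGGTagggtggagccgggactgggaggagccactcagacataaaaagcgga
In these letters Igfbp2 has 3 GC boxes, Igfbp4 a TATA box whose first base is at -28, and Igfbp5 none of the 4 motifs. Another Igfbp2 window, before a later start and not shown, also has none of the 4 motifs. The Igf2 stretch has the Glis core with its first base at -55 and 2 GC boxes. Igf2 has 4 windows in the table, and the other 3 hold no Glis core. Over all 32851 such windows in the table, TGGGGGGT was found in 1.36%, TGTTTAC in 3.17%, TATAAA in 12.4% and GGGCGG in 32.7%. Of the 34 listed genes, 30 of those measured and also Irs2 and Gsk3a have windows in the table, 49 in all, while Insr and Eif4ebp1 were not matched. The Glis core was in 3 of the 49, or 6.12%, from Igf2, Igfbp3 and Sgk1. The forkhead element was in windows of Akt1 and Igfals, the TATA box in windows of Gsk3b, Igfbp4, Igfbp6, Pik3r1 and Sgk1, and the GC box in 51% of the windows. A match is a description of letters in a window, and occupancy was not measured here. Igf2, Igfbp3 and Sgk1 had mean ratios of 0.02, 0.11 and 0.03, and neither Igfbp2 window held a Glis core.

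Adaptor genes showed no difference past the rule. Irs1, the widely used insulin receptor substrate, was dim, with 79.7 and 84.7 in the mutant, against 95.2 and 84.1 in the wild type, and ratios of -0.26 and 0.01. A brighter clone probe whose description names Irs1, not mapped by the rule, read 0.01 and 0.02. Irs3, a rodent member of the family, had 87.2 and 76.8 in the mutant, against 88.5 and 73.7 in the wild type, and ratios of -0.02 and 0.06. Irs4, an X-linked member of the family, had 589.2 and 378.7 in the mutant, against 536.9 and 348.6 in the wild type, with ratios of 0.13 and 0.12. The ratios of Irs4 repeated across dyes although its signals were lower on the second array in both pools. A dimmer Irs4 probe read -0.07 and -0.01, so the sign depended on the probe.

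PI3-kinase subunit genes had mean ratios between -0.07 and 0.11. Pik3ca, a catalytic subunit, had 142.5 and 141.8 in the mutant, against 124.6 and 139.6 in the wild type, and ratios of 0.19 and 0.02. Pik3cb, the other catalytic subunit listed, had 98.9 and 111.8 in the mutant, against 96.1 and 109.5 in the wild type, and ratios of 0.04 and 0.03. Its second probe was not well above background. Pik3r2, a regulatory subunit, had 1531.8 and 1507.8 in the mutant, against 1325.1 and 1509.0 in the wild type, and ratios of 0.21 and 0.00.

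Pik3r1, the main regulatory subunit gene, was read by 4 probes on chromosome 13 that did not give 1 answer. The brightest had 457.0 and 404.3 in the mutant, against 470.9 and 432.0 in the wild type, with ratios of -0.04 and -0.10. A dimmer probe from 97859119 to 97859178 had 171.9 and 177.6 in the mutant, against 219.5 and 246.9 in the wild type, and its ratios of -0.35 and -0.48 passed the 0.32 log2 rule as lower. The probe from 97857317 to 97857376 averaged -0.05, and that from 97862317 to 97863359, a span longer than a probe that crosses a gap such as an intron, read 0.11 and 0.22. Over all 48 detected probes of the 32 genes, 1 was higher and 1 lower by the rule, and this Pik3r1 probe was the lower one. Over all detected genes, at 1 probe per gene, 1.23% were higher and 1.65% lower. The share over all detected probes was not counted.

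Pdpk1, the kinase that phosphorylates the activation loop of Akt, had the lowest mean ratio of the 32 genes. Its brightest probe had 990.2 and 1029.1 in the mutant, against 1191.9 and 1310.8 in the wild type. Mutant signals were below wild-type signals without overlap, and the ratios were -0.27 and -0.35, so 1 array fell short of 0.32 log2. The mean of -0.31 is 1.24-fold lower. The other 2 Pdpk1 probes averaged -0.10 and 0.05, and the median over its probes was -0.099.

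Akt genes and Sgk1 changed sign with the dyes. Akt1, the widely expressed isoform, had 6174.2 and 5114.3 in the mutant, against 5024.4 and 5439.0 in the wild type, and ratios of 0.30 and -0.09. Akt2, the isoform most tied to glucose uptake, had 485.7 and 551.2 in the mutant, against 489.8 and 501.7 in the wild type, and ratios of -0.01 and 0.14. Sgk1, a related kinase also activated by Pdpk1, had 905.3 and 844.5 in the mutant, against 795.3 and 918.6 in the wild type, and ratios of 0.19 and -0.12. For Akt1, as for Igf2, the signal within a pool was higher in Cy5 than in Cy3. Second probes averaged 0.05 for Akt1 and 0.08 for Akt2.

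The genes for proteins that Akt phosphorylates differed little. Foxo1, a forkhead factor that insulin keeps out of the nucleus, had 658.4 and 568.4 in the mutant, against 656.6 and 558.7 in the wild type, and ratios of 0.00 and 0.02. Its second probe averaged -0.11. Foxo3, a relative of Foxo1, had 296.4 and 370.6 in the mutant, against 275.8 and 375.1 in the wild type, and ratios of 0.10 and -0.02. Gsk3b, a kinase that inhibits glycogen synthase, had 143.5 and 127.9 in the mutant, against 134.0 and 128.5 in the wild type, and ratios of 0.10 and -0.01. A clone probe whose description names Gsk3a, outside the rule, read 0.14 and 0.06. All means in this group, second probes of Foxo1 and Gsk3b included, were within 0.3 log2 of 0.

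In the mTORC1 branch the genes split by sign at small sizes. Tsc1, which stabilises the Tsc complex, had 124.6 and 132.0 in the mutant, against 120.6 and 120.4 in the wild type, and ratios of 0.05 and 0.13. Tsc2, which carries the activity that switches Rheb off, had 1135.0 and 1217.2 in the mutant, against 1194.5 and 1299.4 in the wild type, and ratios of -0.07 and -0.09. Rheb, the GTPase that activates mTORC1, had 3163.2 and 3047.3 in the mutant, against 3478.4 and 3043.9 in the wild type, and ratios of -0.14 and 0.00. The genotypes overlapped for Tsc2 and Rheb but not for Tsc1, whose second probe averaged -0.01. A pair of clone probes whose descriptions name Tsc1, outside the rule, averaged -0.04 and -0.01, the second from signals of 615.3 and 526.2 in the mutant, against 624.3 and 523.7 in the wild type.

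Eif4ebp1, the repressor of translation initiation that mTORC1 switches off, had 4035.2 and 4053.4 in the mutant, against 3441.9 and 3564.1 in the wild type. These did not overlap, and the ratios of 0.23 and 0.19 with a mean of 0.21 repeated across dyes but stayed under 0.32 log2. A dimmer Eif4ebp1 probe, also on chromosome 8, read -0.02 and 0.09.

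Of the 32 genes 15 had more than 1 probe. Mean ratios of the probes differed in sign for 7 of the 15, Igf1, Irs4, Pik3r1, Pdpk1, Foxo1 and Tsc1 among them, and had the same sign for 8. Igfbp5 and Eif4ebp1 had the same sign but unlike sizes, with means of 0.40 and 0.05 for Igfbp5 and of 0.21 and 0.03 for Eif4ebp1. Igfbp4 and Gsk3b were among those whose probes gave the same sign of mean and similar sizes. Which transcript forms the single probes read was not tested.

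**Figure D3:**
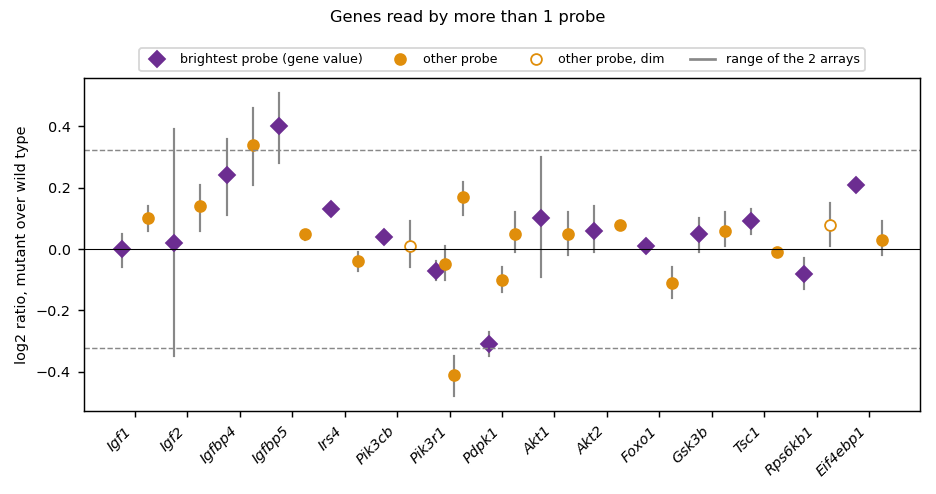
Mean log2 ratio of mutant over wild type (vertical axis) for each probe of the 15 genes with more than 1 probe. Purple diamonds are the brightest probe, orange circles the other probes (open where not well above background), grey lines the range of the 2 arrays and dashed lines 0.32 log2 either side of 0; Igfbp5, Pdpk1 and Pik3r1 have probes far apart, and the grey line of the brightest Igf2 probe crosses 0.

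A wider list of 102 pathway genes, of which 96 were measured, was examined in the same way. Ddit4 alone was higher by the 0.32 log2 rule, or 1.04% of the 96 where 1.23% of all detected genes were. Ins1 and Ins2 were lower, 2 of 96, where 1.65% of all detected genes were. Ddit4, a stress-induced inhibitor of mTORC1, had signals of 5609.9 and 5611.4 in the mutant, against 4201.7 and 3939.0 in the wild type. These did not overlap, and the ratios were 0.42 and 0.51, a mean of 0.46 or 1.38-fold. By median centring Ddit4 no longer passed the rule. Without the insulin genes the median of the remaining 94 was 0.05, and 90 of them, or 95.7%, lay within 0.3 log2 of 0, where 94.7% of all detected genes did. The median of the 32 genes, 0.04, was thus close to that of the wider pathway.

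Among groups of the wider list, the 14 measured pathway inhibitors had a median of 0.04, the 18 further PI3-kinase and Akt genes 0.06, the 21 further mTOR genes 0.07 and the 10 Ras and MAP kinase genes 0.01. The 8 genes listed as known Foxo outputs in other tissues had a median of 0.06, and none passed the rule. The 11 genes for IGF-handling proteins, which include proteases of the binding proteins and their inhibitors, had a median of 0.03, and none passed the rule. Pappa, a protease that cleaves Igfbp4, came near it with ratios of 0.42 and 0.32, the second just under the limit before rounding. Pappa passed the rule with an offset of 0, by the software ratio, in the deposited table and by median centring. Stc2, an inhibitor of that protease, read 0.27 and 0.52, short of the rule on 1 array.

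**Figure D4:**
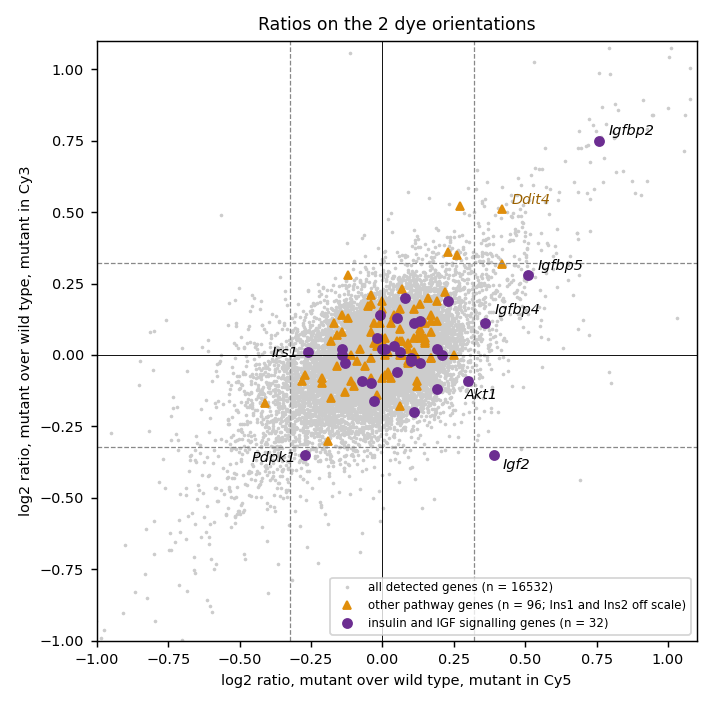
Log2 ratio of mutant over wild type with the mutant labelled in Cy5 (horizontal axis) and in Cy3 (vertical axis). Grey points are all 16532 detected genes, those outside the axes not drawn, orange triangles the 96 other pathway genes, purple circles the 32 insulin and IGF signalling genes and dashed lines 0.32 log2 either side of 0; Igfbp2 lies at 0.76 and 0.75, while Igf2 lies at 0.39 and -0.35.

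Across the 32 genes the ratios of the 2 arrays had a Pearson's r of 0.54 and a Spearman's rho of 0.25, and across all detected genes an r of 0.72 and a rho of 0.43. These are descriptions over genes, which share the pools and arrays and are not replicates. For 16 of the 32 genes the mean ratio was within 1 technical SD of 0 for genes as bright, so their order was not resolved by 2 arrays.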

How the data were processed

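RNA of whole pancreas at postnatal day 3 was compared between 1 mutant and 1 wild-type pool on 2 dye-swapped arrays, from 500 ng of total RNA, per the labels. The deposited scanner files give mean and background intensity per channel, not normalised, and a log10 ratio made by the scanner software, per the file headers. Its version is 7.5 per the labels, followed by Rosetta Resolver 6.0, and 8.5.1.1 per the file headers. The deposited series table gives log2 ratios, which equal the software's mutant over wild-type ratios within 0.002 for 99.95% and 99.85% of probes, with column medians of 0.

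Intensities were corrected with limma 3.58.1 (R 4.3.3) by normexp with an offset of 50, which shrinks ratios of dim genes, and normalised by loess within arrays. Loess takes it that few genes change at any intensity. Signals per channel were scaled by Aquantile. Flagged spots (15 and 53) were left out, saturated spots kept and spots of 1 probe averaged. Probes were named through RefSeq GRCm38.p6, used for names, gene order and promoter sequence: 23398 of 41174 matched. Probe positions are those of the files (build: not given in the sources used here). The brightest unsaturated probe stood for each gene, which was counted as detected when well above background in at least 1 genotype on both arrays. By channel 94% to 96.8% of spots were well above background. The arrays are technical repeats, so their number limits the precision and no test was made. The genes named are the 32 measured members, except that the account of 1 of them is not reported here, and, of the wider pathway list, those past the 0.32 log2 rule and the 3 whose mean ratio was farthest from 0. Pappa, Stc2, Grb10 and Ptprf were named after their values were seen, because they passed the rule under an alternative. Members, lists and rules were chosen with earlier results of these data known. Alternatives were the offset, software ratio, centring, deposited table, median over probes, background filters and each array alone. The procedure was tested on simulated ratios. That simulation had no dye difference particular to single genes, such as Igf2 showed, so it cannot speak to such genes. Python 3.11.15 with pandas 2.3.3 made the summaries.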

Additional observations from a re-analysis of the deposited data

How the results depend on the processing

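Igfbp2 passed the 0.32 log2 rule under each of 9 alternatives, with a mean ratio between 0.689 and 0.791, and no member passed the 2-fold rule. For Igfbp2 most of these could not come out otherwise. It has 1 probe, well above background in both genotypes, so the median over probes and the background filters left its value at 0.753. Each array alone only loosens a rule met on both, and the deposited table repeats the software ratio. The offset, software ratio and centring were the alternatives that could differ. The median of the members lay between -0.001 and 0.069. Counts of members moved as follows. With the array of the mutant in Cy5 alone, 4 members were higher (Igf2, Igfbp2, Igfbp4 and Igfbp5), where 2.72% of all genes were, and with the array of the mutant in Cy3 alone 2 were lower (Igf2 and Pdpk1), where 2.61% of all genes were. With the scanner software ratio and with the deposited values, Igfbp1 was lower, so that the count was 1, where 2.64% of all genes were lower by either. Of 2 alternatives chosen after seeing the data, a filter at the negative controls left Igfbp2 higher and 0 lower, and a 1.2-fold threshold gave 2 higher (Igfbp2 and Igfbp5) and 1 lower (Pdpk1), where 1.71% and 2.58% of all genes were. Of the wider pathway list 2 genes were higher with an offset of 0, the software ratio, the deposited table or the mutant in Cy5 alone (Ddit4 and Pappa), and 4 with the mutant in Cy3 alone (Ddit4, Grb10, Ptprf and Stc2). Median centring gave 1, Pappa in place of Ddit4. Of all genes, 1.68% were higher with an offset of 0, 1.81% by the software ratio and 1.82% in the deposited table. With the mutant in Cy5 alone 2.72% of all genes were higher, with it in Cy3 alone 1.93%, and by median centring 0.907%. Of 279 further values of single members, 34 moved by more than the technical SD. Values of Igfbp5, Igfbp4 and Pdpk1, with reported means of 0.396, 0.24 and -0.308, were among those that moved. The sign changed for 27 of the 279, and these had a size of at most 0.122 in the values reported. The cause of these changes was not tested. No paired analysis was possible because each genotype has 1 pool and the result comes from no test. Dim members, Igfbp1 and Irs1 among them, are limited by signal over background, and nothing was checked across animals.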
